A study of Homo sapiens with 12 samples.

Results

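The MYC network is a family of transcription factors that share MAX, or the related protein MLX, as a dimer partner and compete for the same short DNA element, the E-box. Transcript levels of 9 genes of this network (MYC, MAX, MXD1, MXD3, MXD4, MXI1, MNT, MLX and MGA) were followed in CAMA-1 cells, an ER-positive (oestrogen receptor-positive) luminal line established from a human breast cancer. The members were chosen by gene symbol, and the 9 symbols each matched 1 of the 60612 named rows of the count table. All 9 were also among the 11803 genes that passed the filter on low counts. Wild-type CAMA-1 cells were given DMSO (the vehicle), abemaciclib, which inhibits the kinases CDK4 and CDK6, at 100 nM, fulvestrant, which binds ER and leads to its degradation, at 5 nM, or both drugs (the combination, for which the labels do not restate the doses). Treatment lasted 5 days. Each group held 3 libraries described as biological replicates, so 12 libraries of 3′ RNA sequencing were compared, with totals of 3299119 to 5164667 reads. All values refer to this 1 wild-type line.

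MYC with MAX activates genes of ribosome production, nucleotide synthesis and growth. The MXD proteins (MXD1, MXD3, MXD4 and MXI1, also called MXD2) and MNT also pair with MAX, but recruit SIN3 corepressors and lower transcription at shared sites, so that they oppose MYC. MGA pairs with MAX inside a Polycomb complex, PRC1.6, and MLX pairs with the glucose-sensing factors MLXIP (MondoA) and MLXIPL (ChREBP) as well as with MXD1, MXD4 and MNT. In ER-positive breast cells MYC is a known oestrogen-induced gene.

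The E-box CACGTG is the letter sequence to which these dimers bind, and it was searched for in the 300-base RefSeq promoter windows (250 bases before to 50 after a transcript start, GRCh38.p14), of which 13 belonged to 8 of the 9 members. MYC had no window, so its promoter was not searched for this or any other element. The E-box was found in the windows of MXD4, MNT and MLX, against 7.26% of 35116 windows over all genes. The sequence reads the same on both strands. The stretches upstream of these 3 gene starts are shown because MXD4 and MLX carried called changes in opposite directions while MNT did not pass the test against DMSO. The E-box is in capitals, and each stretch is given 5′ to 3′ on the strand of its gene, ending at the base before the gene start. They lie at chr4:2262110-2262359 (minus strand) for MXD4, at chr17:2401105-2401310 (minus strand) for MNT and at chr17:42566850-42567071 (plus strand) for MLX.
MXD4: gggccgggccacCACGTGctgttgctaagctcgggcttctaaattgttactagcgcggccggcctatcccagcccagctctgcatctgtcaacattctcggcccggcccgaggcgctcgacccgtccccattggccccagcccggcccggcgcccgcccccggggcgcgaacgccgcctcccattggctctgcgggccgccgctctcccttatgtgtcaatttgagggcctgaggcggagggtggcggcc
MNT: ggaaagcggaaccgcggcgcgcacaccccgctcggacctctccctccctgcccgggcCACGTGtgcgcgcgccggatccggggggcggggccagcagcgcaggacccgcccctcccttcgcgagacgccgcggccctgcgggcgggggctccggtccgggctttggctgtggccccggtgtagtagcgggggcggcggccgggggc
MLX: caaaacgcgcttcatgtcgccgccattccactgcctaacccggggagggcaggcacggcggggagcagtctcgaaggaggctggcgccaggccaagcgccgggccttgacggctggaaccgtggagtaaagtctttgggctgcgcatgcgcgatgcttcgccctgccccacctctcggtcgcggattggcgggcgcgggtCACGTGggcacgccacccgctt

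In these stretches the E-box began 238 bases upstream of the gene start in MXD4, 149 in MNT and 22 in MLX. Their GC content was 70.4% in MXD4, 80.6% in MNT and 68.9% in MLX. Of 3 further elements searched on both strands, the E2F site, TTT and CGC with 2 bases of C or G between them (in 3.31% of all windows), matched 1 member window, of MGA. The cell cycle homology element TTTGAA (15.2% of all windows) matched 1 window of MGA. The full oestrogen response element, GGTCA and TGACC with any 3 bases between them (0.057%), matched no window of the 8 members searched, which leave out MYC. A match describes the letters only and gives no information on binding.

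All luminal markers examined (KRT8, KRT18, KRT19, EPCAM, ESR1, GATA3, FOXA1 and SPDEF) passed the filter, with summed levels of 5690 to 7820 CPM per library, where CPM is the read count normalised to the TMM-scaled library total. The summed level of 5 immune markers stayed at or below 0.388 CPM and that of 3 endothelial markers at or below 0.846 CPM. The summed level of 5 basal or myoepithelial markers was 3.99 to 5.34 CPM in DMSO and 12.4 to 29.3 CPM under the drugs, and ACTG2 alone, the 1 of them that passed the filter, ran from 3.04 to 28.5 CPM while each of the other 4 stayed at or below 1.45 CPM. The summed level of 5 fibroblast markers ran from 17.8 to 36.9 CPM, with COL1A2, DCN and PDGFRB at 0 reads. Mitochondrial transcripts took 12.0 to 12.5% of reads in DMSO and 15.6 to 20.6% under the drugs. The part of these shares in the results was not tested. The labels name no technical batch. DMSO replicate 1 and fulvestrant replicate 3 stood apart from the other libraries of their groups, and the changes against DMSO of the members are therefore given without them as well (the abemaciclib and combination values without DMSO replicate 1, and the fulvestrant value without each in turn).

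**Figure D1:**
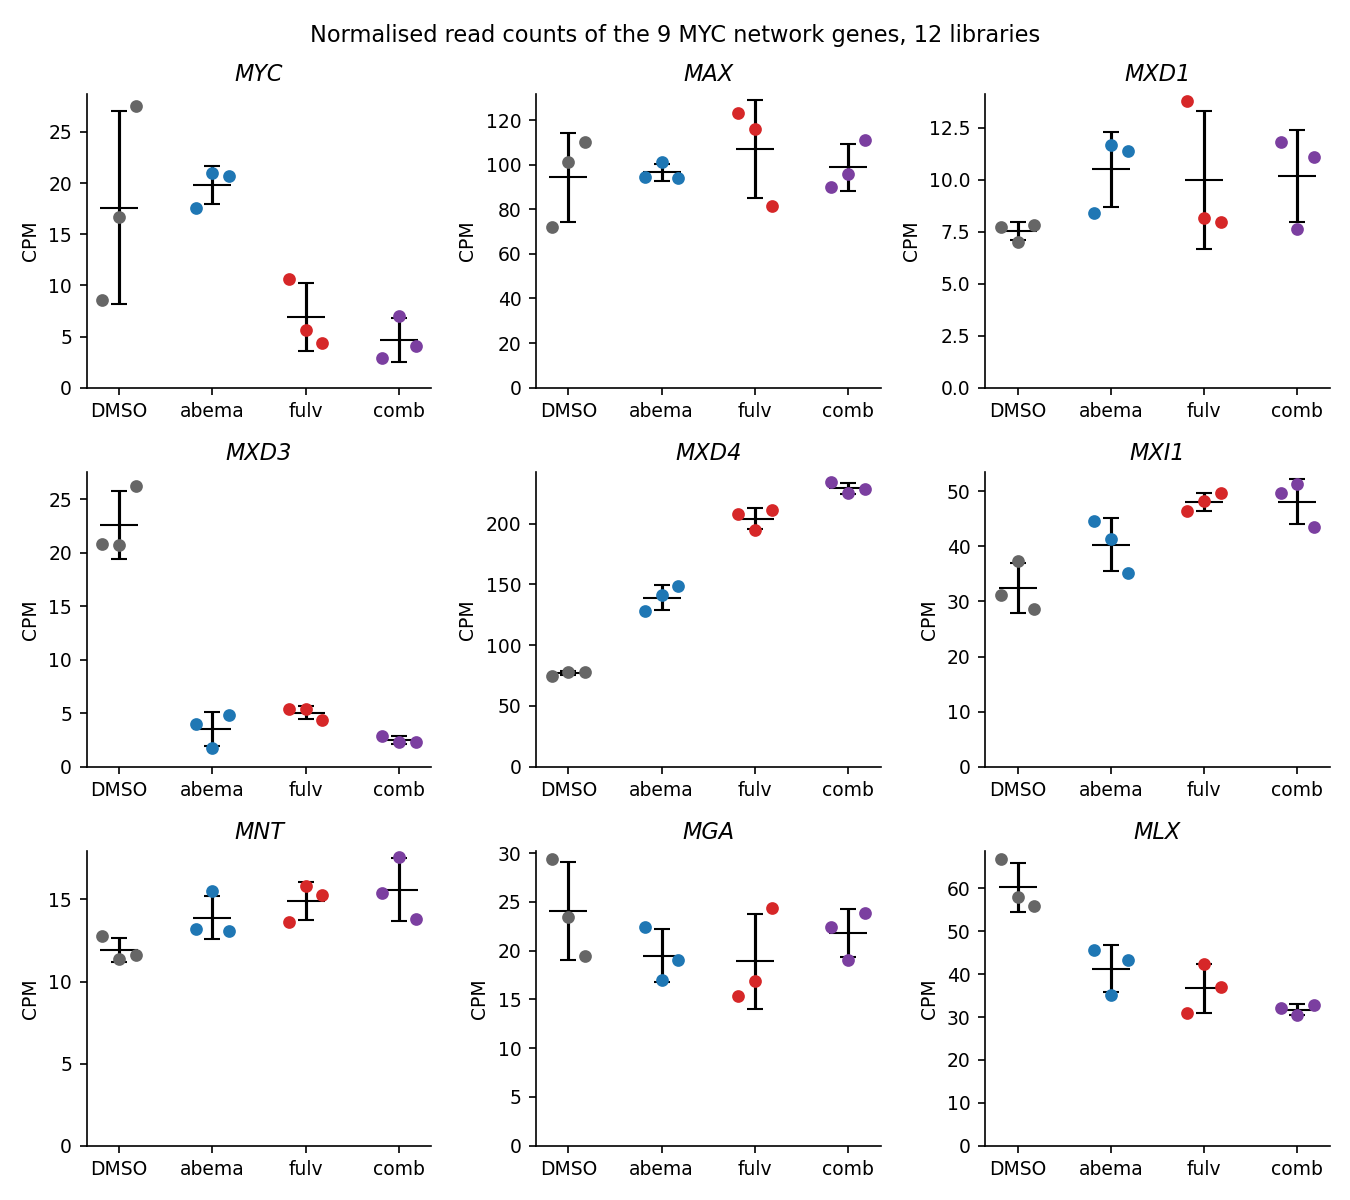
Normalised read count (CPM, vertical axis from 0) of each of the 9 genes in DMSO, abemaciclib (abema), fulvestrant (fulv) and combination (comb) libraries; points are libraries in replicate order, horizontal bars are means and whiskers are SD (n = 3). MYC spans 8.61 to 27.5 CPM within DMSO alone, MXD4 steps from 76.8 to 229 CPM on average, and MXD3 falls from 22.6 CPM to at most 5.04 CPM on average under any treatment.

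Against DMSO, the changes ran in both directions. MXD4 and MXI1 were called higher and MXD3 and MLX lower under each of the 3 treatments. MYC was called lower with fulvestrant and with the combination. The MXI1 call with abemaciclib held in only 9 of 19 alternative settings. MLX shares exon bases with an antisense gene that also fell, as described below. With abemaciclib, 2 of 9 members were called higher, where 20.5% of all genes tested were called higher, and 2 were called lower, where 20.7% were (quasi-likelihood F test of edgeR, with p adjusted by Benjamini-Hochberg over 11803 genes and a threshold of 0.05). With fulvestrant, 2 members were higher (25.3% of all genes) and 3 lower (25.7%). With the combination, again 2 were higher (27.7% of all genes) and 3 lower (27.5%). These shares of the members lay near those of all genes. Without DMSO replicate 1 the members called numbered 3 with abemaciclib and 5 in each of the other two comparisons with DMSO, and without fulvestrant replicate 3 they numbered 4, 6 and 5. The 3 comparisons share the DMSO libraries. In bulk RNA, a smaller number of cells expressing a gene and less RNA of it per cell cannot be told apart.

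MYC itself, the activating member, had 8.61, 16.7 and 27.5 CPM in the DMSO libraries, from 29, 88 and 133 reads. With abemaciclib it had 17.6, 21.0 and 20.7 CPM, which lay inside the DMSO range. With fulvestrant the levels were 10.6, 5.64 and 4.33 CPM, and with the combination 2.89, 7.03 and 4.08 CPM. The fulvestrant libraries overlapped the DMSO libraries, because DMSO replicate 1 lay below fulvestrant replicate 1, whereas the combination libraries lay below all DMSO and all abemaciclib libraries. The log2 fold change against DMSO was 0.12 ± 0.37 (SE) with abemaciclib (adjusted p = 0.825, 95% interval -0.70 to 0.95), which leaves room for a change in either direction. It was -1.40 ± 0.44 with fulvestrant (adjusted p = 0.0222) and -1.93 ± 0.46 with the combination (adjusted p = 0.00428), a 3.82-fold lower level. With 1 library left out at a time, the fulvestrant value ran from -1.86 (without fulvestrant replicate 1) to -0.93 (without DMSO replicate 3), both of which passed. Without DMSO replicate 1 the values were -0.16, -1.68 and -2.21 with abemaciclib, fulvestrant and the combination (adjusted p = 0.697, 4.1e-04 and 3.0e-05). The fulvestrant call was lost without fulvestrant replicate 2 (-1.30, adjusted p = 0.0783), without fulvestrant replicate 3 (-1.14, adjusted p = 0.0906) and when only the DMSO and fulvestrant libraries were fitted (-1.39, adjusted p = 0.0529). The combination call was kept under all 19 alternative settings, with log2 fold changes between -2.34 and -1.47.

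The spread of MYC between replicates was wide in 3 of the 4 groups. The coefficient of variation (CV, SD over mean) of its CPM was 53.8% in DMSO, 48.4% with fulvestrant and 45.7% with the combination, but 9.48% with abemaciclib. Its biological coefficient of variation as estimated by edgeR was 0.349, rank 62 from the top among 11803 genes, against a common value of 0.0918. MXD1 (26 to 57 reads per library) and MNT (43 to 85 reads), which were also read at low numbers, had estimates of 0.138 and 0.0806. MXD4 was at the other end, with 0.0697 and 97.3% of genes above it. The deviations of MYC and MAX from their group means had the same sign in 8 of 12 libraries, with a Pearson's r of 0.76 that was given no test. In DMSO replicate 1, MYC lay 0.85 and MAX 0.36 below the group mean on the log2 scale (deviations of -0.85 and -0.36), and in fulvestrant replicate 3 they deviated by -0.52 and -0.37. These same libraries held the lowest scores (-0.40 and -0.66) on the first component of the within-group deviations of 8472 genes, which carried 35.1% of that variance. The sign of this component was set so that its scores rose with the MYC deviations. Fulvestrant replicate 2 had a score of 0.48, although its MYC deviation was -0.17. The mitochondrial shares of DMSO replicate 1 and fulvestrant replicate 3, 12.5% and 17.8%, lay within or close to those of the other libraries of their groups (12.0 and 12.4% in DMSO, 17.2 and 20.6% with fulvestrant). The part of these libraries in the MYC spread was not tested further.

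**Figure D2:**
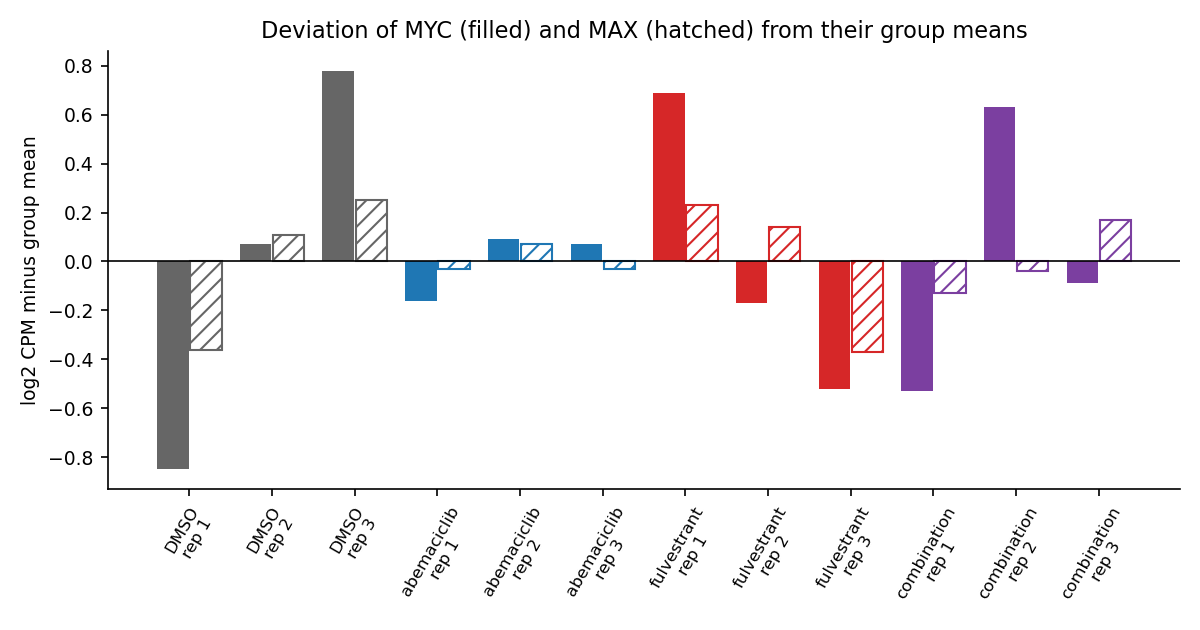
Log2 CPM of MYC (filled bars) and MAX (hatched bars) minus the mean of the group (vertical axis) in each of the 12 libraries (horizontal axis), coloured by treatment group; no error applies to single libraries. MYC ranges from -0.85 to 0.78 within DMSO, while the abemaciclib libraries stay between -0.16 and 0.09.

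Genes whose log2 CPM across the 12 libraries ran much like MYC, out of 8471 genes searched, included SELENOI (Pearson's r = 0.97), ALG14 (0.95), PLS1 (0.94) and MOCS2 (0.93). These values describe 12 libraries that share 4 treatments and their composition, and were given no test. SELENOI, an enzyme of phospholipid synthesis, had 15.1, 21.5 and 22.7 CPM in DMSO, 20, 23.2 and 22.2 CPM with abemaciclib, 17.5, 14.4 and 12.8 CPM with fulvestrant and 12.3, 17.2 and 12.6 CPM with the combination. Its order of libraries within each of the 4 groups was that of MYC. Since SELENOI was picked for its likeness to MYC over these libraries, that order is no separate observation.

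MAX, the obligate partner, had 72.1, 101 and 110 CPM in DMSO, 94.4, 101 and 94.2 CPM with abemaciclib, 123, 116 and 81.4 CPM with fulvestrant and 90.0, 95.7 and 111 CPM with the combination. All 4 groups overlapped. The log2 fold changes against DMSO were 0.02 with abemaciclib (95% interval -0.33 to 0.38), 0.16 with fulvestrant (-0.19 to 0.52) and 0.06 with the combination (-0.29 to 0.41). MAX passed the test in 1 setting, with fulvestrant when fulvestrant replicate 3 was left out (0.32, adjusted p = 0.0328). Without DMSO replicate 1 the 3 values were -0.13, 0.02 and -0.09 (adjusted p = 0.499, 0.931 and 0.592). Within a library, reads of MYC per read of MAX had a median of 0.166 in DMSO (0.119 to 0.249), 0.207 with abemaciclib (0.186 to 0.220), 0.0532 with fulvestrant (0.0488 to 0.0865) and 0.0368 with the combination (0.0321 to 0.0734). These ratios compare groups only, since levels of different genes in 3′ reads are not on 1 scale.

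MXD4, a repressive partner of MAX that is associated with cells leaving the cycle, gave the smallest spread between replicates of the 9 genes. It lies at chr4:2247432-2262109 on the minus strand of GRCh38. Its levels were 74.8, 77.5 and 77.9 CPM in DMSO, 128, 141 and 149 CPM with abemaciclib, 208, 195 and 211 CPM with fulvestrant, and 234, 225 and 228 CPM with the combination. No groups overlapped, and the order was DMSO, abemaciclib, fulvestrant and combination. The log2 fold change against DMSO was 0.86 ± 0.08 with abemaciclib (adjusted p = 2.7e-09), 1.41 ± 0.08 with fulvestrant (4.9e-14) and 1.57 ± 0.08 with the combination (2.5e-15), the last a 2.98-fold higher level. Each call held under all 19 alternatives. The values were 0.84, 1.40 and 1.56 without DMSO replicate 1, and the fulvestrant value was 1.39 without fulvestrant replicate 3. Per read of MYC, MXD4 reads had a median of 4.64 in DMSO (2.83 to 8.69), 7.20 with abemaciclib (6.72 to 7.28), 34.5 with fulvestrant (19.5 to 48.7) and 55.8 with the combination (32 to 81). The abemaciclib ratios lay within the DMSO range, and the fulvestrant and combination ratios lay above it.

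MXD3, which is reported in proliferating cells in contrast to the other MXD genes, fell. It lies at chr5:177301461-177312757 on the minus strand, in a span shared with RAB24 (same strand) and PRELID1 (opposite strand), neither of which has exon bases in its canonical last exon. Its levels were 20.8, 20.7 and 26.3 CPM in DMSO, 4.00, 1.77 and 4.80 CPM with abemaciclib, 5.44, 5.36 and 4.33 CPM with fulvestrant, and 2.89, 2.27 and 2.33 CPM with the combination. Every treated library lay far below every DMSO library. The log2 fold change was -2.69 ± 0.25 with abemaciclib (adjusted p = 1.3e-09), -2.17 ± 0.24 with fulvestrant (1.6e-08) and -3.18 ± 0.26 with the combination (4.8e-11), a 6.44-fold, 4.49-fold and 9.05-fold lower level. Without DMSO replicate 1 the values were -2.74, -2.21 and -3.23, and without fulvestrant replicate 3 the fulvestrant value was -2.06. The treated libraries held only 8 to 22 reads of MXD3, so differences among them are imprecise. Among 8472 genes, the closest patterns over the 12 libraries were those of PLIN2 (r = 0.98), AIF1L, DUT, CIAO2A and XRCC5 (0.97 each), given as a description.

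MXI1, the MXD2 protein, had 31.2, 37.4 and 28.7 CPM in DMSO, 44.6, 41.3 and 35.1 CPM with abemaciclib, 46.5, 48.2 and 49.7 CPM with fulvestrant, and 49.6, 51.3 and 43.5 CPM with the combination. Fulvestrant and combination libraries lay above all DMSO libraries, whereas abemaciclib replicate 3 lay below DMSO replicate 2. The log2 fold change was 0.56 ± 0.13 with fulvestrant (adjusted p = 4.8e-04) and 0.56 ± 0.12 with the combination (3.9e-04). With abemaciclib it was 0.31 ± 0.13 (adjusted p = 0.0481). That call was lost in 10 of 19 alternatives, among them DESeq2 (adjusted p = 0.109), size factors by relative log expression (0.0544), no filter on low counts (0.0543) and the omission of DMSO replicate 1 or 3, abemaciclib replicate 1 or 2, fulvestrant replicate 1 or combination replicate 1 or 2 (adjusted p from 0.0502 to 0.209). Without DMSO replicate 1 the 3 values were 0.29, 0.54 and 0.53, and leaving out fulvestrant replicate 3 gave 0.54 with fulvestrant.

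MXD1, the founding MXD gene, was read at a low level, with 7.72, 7.03 and 7.85 CPM in DMSO and 7.65 to 13.8 CPM in the 9 treated libraries. The abemaciclib and fulvestrant libraries lay above those of DMSO, and combination replicate 2 did not. Its log2 fold changes of 0.47 ± 0.24, 0.41 ± 0.25 and 0.43 ± 0.24 with abemaciclib, fulvestrant and the combination missed the threshold (adjusted p = 0.125, 0.171 and 0.137). They were 0.49, 0.43 and 0.45 without DMSO replicate 1, and 0.57 with fulvestrant without fulvestrant replicate 3 (adjusted p = 0.0699). MNT, a broadly expressed repressor, had 12.8, 11.4 and 11.6 CPM in DMSO and 13.1 to 17.6 CPM in all treated libraries, which thus lay above those of DMSO. Its log2 fold changes were 0.23 ± 0.17, 0.33 ± 0.18 and 0.39 ± 0.17 (adjusted p = 0.296, 0.123 and 0.0523). They were 0.28, 0.38 and 0.44 without DMSO replicate 1, and 0.31 with fulvestrant without fulvestrant replicate 3. The combination value passed with upper-quartile scaling (0.42, adjusted p = 0.0381) and without combination replicate 3 (0.48, adjusted p = 0.0331). The last exon of MNT overlaps an antisense non-coding RNA by 1065 bases. The strand setting of the counting is not stated, so whether this overlap bears on the MNT values cannot be told.

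MGA, the scaffold of PRC1.6, had 29.4, 23.4 and 19.4 CPM in DMSO, 22.4, 17.0 and 19.0 CPM with abemaciclib, 15.3, 16.9 and 24.4 CPM with fulvestrant, and 22.4, 19.0 and 23.9 CPM with the combination. All groups overlapped that of DMSO. The log2 fold changes were -0.28 ± 0.18, -0.32 ± 0.18 and -0.13 ± 0.17 (adjusted p = 0.213, 0.145 and 0.567). Without fulvestrant replicate 3, the fulvestrant value was -0.56 and passed (adjusted p = 0.0133). Without DMSO replicate 1 the 3 values were -0.14, -0.17 and 0.02 (adjusted p = 0.619, 0.496 and 0.935), so the size and, for the combination, the sign rested on single libraries.

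MLX, the MAX-like partner, had 66.8, 58.0 and 56.0 CPM in DMSO, 45.6, 35.1 and 43.2 CPM with abemaciclib, 30.9, 42.3 and 36.9 CPM with fulvestrant, and 32, 30.4 and 32.8 CPM with the combination. Every treated library lay below every DMSO library. The log2 fold change was -0.54 ± 0.12 with abemaciclib (adjusted p = 9.6e-04), -0.71 ± 0.13 with fulvestrant (3.2e-05) and -0.92 ± 0.13 with the combination (6.3e-07). These were -0.46, -0.63 and -0.84 without DMSO replicate 1, and -0.72 with fulvestrant without fulvestrant replicate 3. MLX lies at chr17:42567072-42573239 on the plus strand, and 775 bases of its 1657-base last exon are also exon of PSMC3IP, a recombination factor gene on the opposite strand. PSMC3IP fell as well, from 24.6, 27.9 and 26.7 CPM in DMSO to 9.80, 7.06 and 9.10 CPM with abemaciclib, 4.45, 4.51 and 2.51 CPM with fulvestrant and 2.17, 2.89 and 1.17 CPM with the combination. In DMSO, abemaciclib, fulvestrant and combination, MLX had means of 60.3, 41.3, 36.7 and 31.7 CPM. PSMC3IP had means of 26.4, 8.65, 3.82 and 2.08 CPM, so the falls against DMSO were of similar size in CPM. Since the strand setting is not stated, whether this neighbour bears on the MLX values and calls cannot be told.

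**Figure D3:**
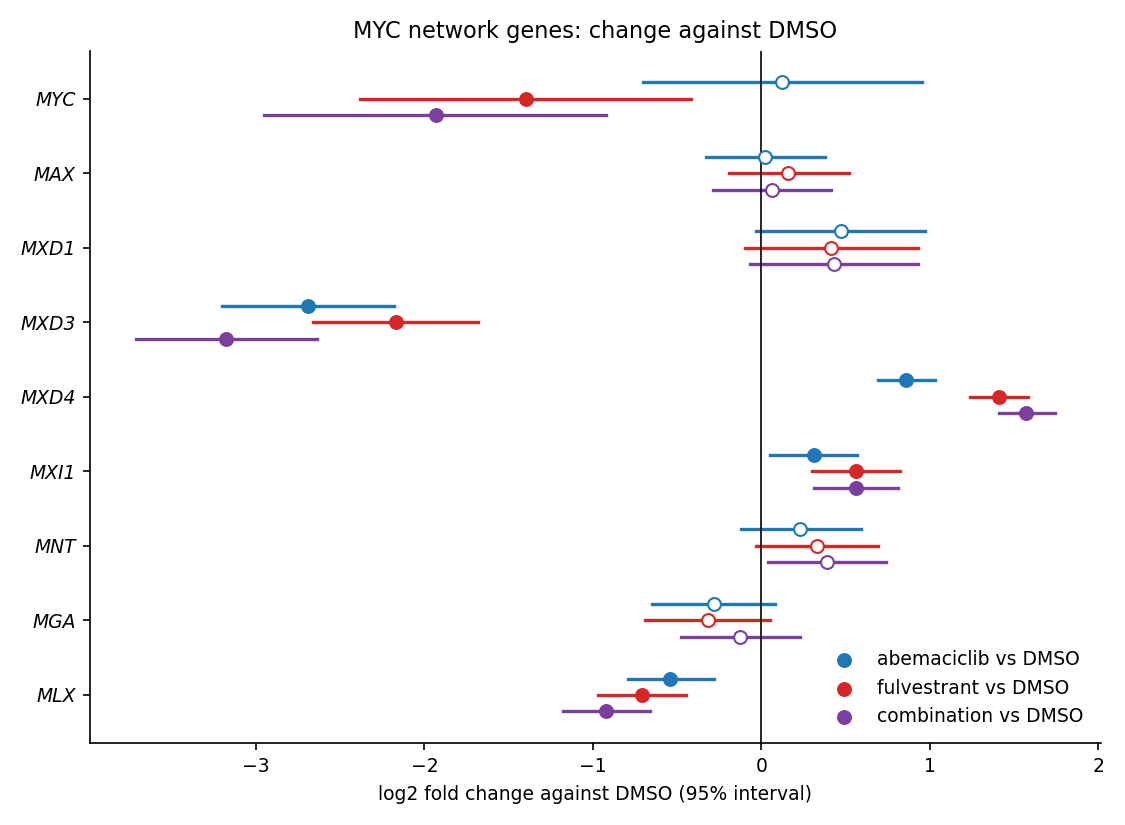
Log2 fold change against DMSO (horizontal axis) with 95% interval (line) for each of the 9 genes (vertical axis) and each treatment (colour, 3 libraries per group); filled points passed the adjusted threshold and open points did not. MXD3 lies between -3.18 and -2.17, MXD4 between 0.86 and 1.57, and the 3 intervals of MAX include 0.

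Adding fulvestrant to abemaciclib (combination against abemaciclib) gave 1 member called higher, where 15.9% of all genes were, and 2 called lower, where 17.7% were. MXD4 was higher by 0.72 ± 0.08 on the log2 scale (adjusted p = 3.6e-08). MYC was lower, with a log2 fold change of -2.05 ± 0.45 (adjusted p = 0.00533), and passed in all 19 alternatives. MLX changed by -0.38 ± 0.13 (adjusted p = 0.0246), a call lost with DESeq2 (adjusted p = 0.051) and without abemaciclib replicate 1 or 3 or combination replicate 1 or 2 (adjusted p from 0.0533 to 0.134). PSMC3IP, which shares exon bases with MLX, was lower there too (-2.06 ± 0.3, adjusted p = 3.9e-06).

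Adding abemaciclib to fulvestrant (combination against fulvestrant) gave 0 members called, where 0.297% of all genes were called higher and 1.63% lower. At an unadjusted p under 0.05 there were 2, and DESeq2 also called 0. The 2 were MXD3 (-1.01 ± 0.33, unadjusted p = 0.00519, adjusted p = 0.149, groups apart) and MXD4 (0.16 ± 0.08, unadjusted p = 0.0452, adjusted p = 0.417, groups apart). For MYC the difference was -0.53 ± 0.54, with a 95% interval from -1.74 to 0.67, and it ran from -0.95 (without combination replicate 2) to -0.07 (without fulvestrant replicate 1) with 1 library left out.

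The effect of abemaciclib in the presence of fulvestrant minus its effect in the absence of fulvestrant (the interaction) passed for 2 members. MXD3 was the 1 called higher, where 9.49% of all genes were, and MXD4 the 1 called lower, where 11.6% were. For MXD3 the effect of abemaciclib was -2.69 without and -1.01 with fulvestrant, a difference of 1.68 ± 0.44 (adjusted p = 0.00665). For MXD4 it was 0.86 without and 0.16 with fulvestrant, a difference of -0.70 ± 0.11 (adjusted p = 5.2e-05). Thus in both genes the combination differed from DMSO by less than the sum of the single effects on the log2 scale. For MXD3 the difference rests on treated libraries of 8 to 22 reads and is imprecise. The interaction of MYC was -0.66 ± 0.66 (adjusted p = 0.533), with -1.13 to -0.19 when 1 library was left out. The 2 effects rest on separate libraries, but the difference uses all 4 groups.

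**Figure D4:**
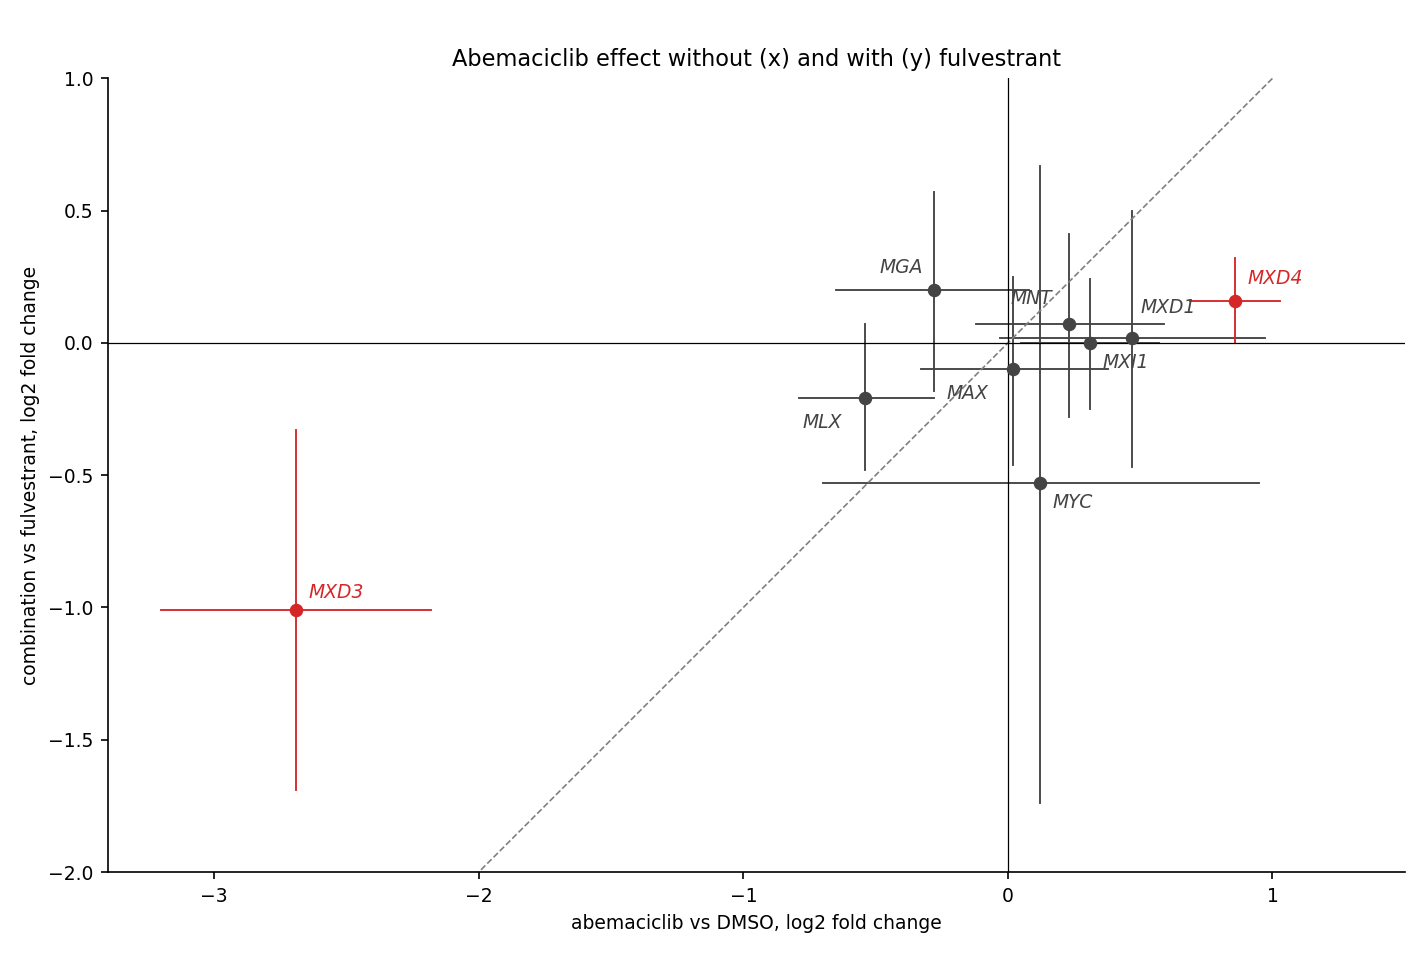
Log2 fold change of abemaciclib against DMSO (horizontal axis) and of the combination against fulvestrant (vertical axis) for the 9 genes, with 95% intervals as lines (3 libraries per group); the dashed line marks equal effects, and red marks genes whose difference passed the adjusted threshold. MXD3 (-2.69 and -1.01) and MXD4 (0.86 and 0.16) are the 2 in red.

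The 4 other genes of the network were read at low or moderate levels. MYCN had 0.594 to 3.37 CPM and MYCL, which did not pass the filter, 0.413 to 3.95 CPM over the 12 libraries. MLXIP, the MondoA gene, had 17.0 to 26.2 CPM and was not called in any comparison. MLXIPL, the ChREBP gene, had 1.78, 1.90 and 0.620 CPM in DMSO and 4.33, 2.69 and 3.3 CPM with the combination (log2 fold change 1.25 ± 0.45, adjusted p = 0.021), from 3 to 18 reads, and DESeq2 did not call it.

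Established MYC target genes moved mostly down. Of 58 in a list that covers ribosome biogenesis, nucleotide synthesis and growth, 56 were tested. This list and the companion lists below were chosen with earlier results of these data known. With abemaciclib 0 were higher and 35 lower (median log2 fold change of the list -0.41), with fulvestrant 1 higher and 47 lower (-0.96), and with the combination 1 higher and 48 lower (-1.01). Of all genes tested, 20.7%, 25.7% and 27.5% were called lower in these comparisons and 20.5%, 25.3% and 27.7% higher. The median over all genes tested lay at 0.00 to 0.01 in these comparisons. NCL, the nucleolar protein nucleolin, had 1560, 1420 and 1370 CPM in DMSO, 959, 915 and 964 CPM with abemaciclib, 667, 590 and 703 CPM with fulvestrant and 705, 695 and 690 CPM with the combination. ODC1, the first enzyme of polyamine synthesis, went from 46.0, 57.8 and 58.3 CPM in DMSO to 12.8, 12.0 and 8.74 CPM with the combination (log2 fold change -2.29 ± 0.16, adjusted p = 3.0e-12). LYAR, a nucleolar factor, changed by -2.22 ± 0.11 with fulvestrant (adjusted p = 1.2e-15) and NOP56, a box C/D snoRNP protein, by -1.30 ± 0.12 with abemaciclib (3.4e-08). SRM, spermidine synthase, was the 1 higher gene (0.23 ± 0.08 with fulvestrant, adjusted p = 0.0206), and that count was 0 without fulvestrant replicate 2 and 2 without fulvestrant replicate 3.

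With abemaciclib, where 35 of these targets fell, the levels of MYC itself lay within the DMSO range. The share of reads in ribosomal protein genes moved with the same groups, at 9.15 to 9.46% in DMSO, 7.16 to 7.21% with abemaciclib, 5.04 to 5.28% with fulvestrant and 4.91 to 4.96% with the combination. All 10 cell cycle markers examined fell in each of the 3 treatments as well (for MKI67, log2 fold changes of -3.24 with abemaciclib and -3.54 with fulvestrant), and their part in the target list was not tested. Adding fulvestrant to abemaciclib gave 1 higher (0 without combination replicate 1) and 38 lower targets (median -0.47, against 0.01 over all genes). Of all genes tested, 15.9% were called higher and 17.7% lower there. Adding abemaciclib to fulvestrant gave 0 called (median 0.01), 3 at an unadjusted p under 0.05 and 0 with DESeq2 and every other alternative. Few of all genes were called in that comparison either, 0.297% higher and 1.63% lower. The interaction was higher for 28 and lower for 0 of the 56 (median 0.39, against -0.01 over all genes), with 21 to 29 higher over the alternatives, the lowest without combination replicate 1. For the interaction, 9.49% of all genes were called higher and 11.6% lower.

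**Figure D5:**
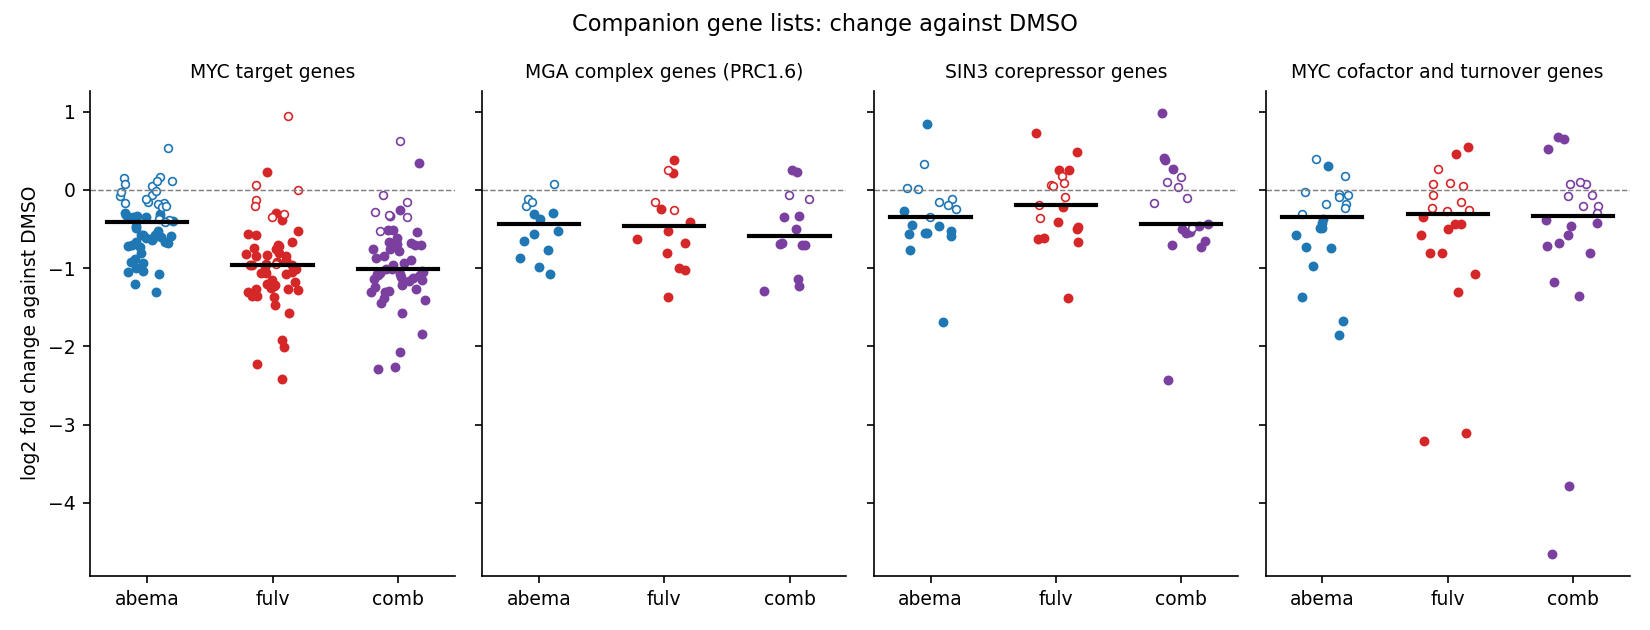
Log2 fold change against DMSO (vertical axis) of each tested gene of 4 companion lists (panels) with abemaciclib (abema), fulvestrant (fulv) and the combination (comb); filled points passed the adjusted threshold, open points did not, and black bars are list medians. The median of the MYC targets is -0.41, -0.96 and -1.01, whereas the SIN3 corepressor list has called genes on both sides of 0.

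The 2 genes taken as targets of MLX with its partners are arrestin-domain genes. TXNIP, an inhibitor of glucose uptake, rose from 111, 129 and 145 CPM in DMSO to 349, 398 and 377 CPM with abemaciclib, 807, 836 and 619 CPM with fulvestrant and 718, 759 and 745 CPM with the combination. Its log2 fold changes were 1.54 ± 0.11, 2.55 ± 0.11 and 2.52 ± 0.11 (adjusted p = 1.4e-10, 1.6e-14 and 1.1e-14). They ran opposite to those of MLX, which carry the limit of the exon shared with PSMC3IP. ARRDC4, the paralogue of TXNIP, stayed between 0.950 and 4.30 CPM and was called higher with abemaciclib alone (1.53 ± 0.45, adjusted p = 0.00763). Of the 3 values against DMSO for ARRDC4, the fulvestrant and combination ones were 0.94 and 0.44 (adjusted p = 0.112 and 0.491).

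Of 14 genes of the MGA-containing PRC1.6 complex, all tested, 0 were higher and 10 lower with abemaciclib (median -0.44), 2 higher and 9 lower with fulvestrant (-0.46), and 2 higher and 10 lower with the combination (-0.59). Of all genes tested, 20.5%, 25.3% and 27.7% were called higher and 20.7%, 25.7% and 27.5% lower, and the median over all genes was 0.00 to 0.01. E2F6, the repressive E2F that anchors the complex with TFDP1, had 18.7, 27.4 and 24.0 CPM in DMSO and 9.88, 11.6 and 6.38 CPM with fulvestrant (log2 fold change -1.37 ± 0.22, adjusted p = 1.1e-05). TFDP1 changed by -0.99 ± 0.12, -1.02 ± 0.12 and -1.14 ± 0.12 with the 3 treatments (adjusted p = 1.7e-07, 7.1e-08 and 7.1e-09). The higher genes were RING1 (0.38 ± 0.10, adjusted p = 0.00369 with fulvestrant), a Polycomb ubiquitin ligase, and RYBP (0.22 ± 0.08, adjusted p = 0.0174 with fulvestrant). With abemaciclib RYBP was called lower (-0.3 ± 0.08, adjusted p = 0.00269). The count of higher genes was 1 with fulvestrant without fulvestrant replicate 3 and 0 with the combination without combination replicate 3.

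Among 19 genes of the SIN3 corepressor that MXD proteins recruit, 1 was higher and 10 lower with abemaciclib (median -0.35), 4 higher and 8 lower with fulvestrant (-0.19), and 4 higher and 9 lower with the combination (-0.43). Called higher among all genes were 20.5%, 25.3% and 27.7%, and called lower 20.7%, 25.7% and 27.5%. The shares of the SIN3 genes called higher (1, 4 and 4 of 19) were thus no larger than those of all genes. SAP30, a SIN3 subunit, fell from 40.4, 34.6 and 33.3 CPM in DMSO to 5.29, 9.10 and 5.44 CPM with the combination (log2 fold change -2.43 ± 0.18, adjusted p = 6.1e-12). Its paralogue SAP30L was higher with the combination (0.38 ± 0.09, adjusted p = 4.3e-04) but lower with abemaciclib (-0.27 ± 0.09, adjusted p = 0.0146). SIN3B, a scaffold, was the gene higher with abemaciclib (0.85 ± 0.10, adjusted p = 1.9e-07), and OGT, the O-GlcNAc transferase, was higher with the combination (0.99 ± 0.15, adjusted p = 1.7e-06). HDAC1, a deacetylase counted in both this list and PRC1.6, changed by -0.77 ± 0.11 with abemaciclib (adjusted p = 2.2e-06). The number of higher SIN3 genes with fulvestrant was 2 without fulvestrant replicate 1.

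Among 22 cofactors and regulators of MYC protein turnover, 1 was higher and 11 lower with abemaciclib (median -0.34), 2 higher and 11 lower with fulvestrant (-0.31), and 3 higher and 11 lower with the combination (-0.33). These counts stand beside 20.5%, 25.3% and 27.7% of all genes called higher and 20.7%, 25.7% and 27.5% called lower. CIP2A, a gene of this list, changed by -1.86 ± 0.16, -3.21 ± 0.19 and -4.65 ± 0.22 with the 3 treatments (adjusted p = 2.8e-10, 5.2e-14 and 2.2e-16). AURKA, a mitotic kinase that can shield MYC proteins from degradation, changed by -1.67 ± 0.10 with abemaciclib and by -3.11 ± 0.12 with fulvestrant (adjusted p = 4.1e-13 and 5.8e-18). SKP2, a ubiquitin ligase subunit of the cell cycle, changed by -1.37 ± 0.16 and -1.31 ± 0.16 (8.1e-08 and 1.1e-07). GSK3B, the kinase that marks MYC for degradation, was higher by 0.31 ± 0.09 with abemaciclib, 0.46 ± 0.09 with fulvestrant and 0.65 ± 0.08 with the combination (adjusted p = 0.0052, 5.8e-05 and 2.6e-07). FBXW7, another gene of MYC turnover in this list, changed by -0.48 ± 0.14 with abemaciclib (adjusted p = 0.00869). What these changes mean for MYC protein was not tested. AURKA and SKP2 are themselves expressed in dividing cells.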

How the data were processed

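RNA of 12 libraries was prepared with a 3′ mRNA kit (QuantSeq FWD). The deposited values are raw read counts per gene symbol, which the authors made with STAR and featureCounts 2.0.1 (submitters' processing notes) on GRCh38; whether counting used the strand is not given in the sources used here. No unique molecular identifiers are named, so intervals cover the spread between libraries and not PCR duplication. The 44 unnamed rows held 0 reads and were left out. Groups came from the treatment labels.

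The analysis ran in edgeR 4.0.16 under R 4.3.3, with filterByExpr (minimum count 10, minimum total 15; 11803 genes), TMM scaling, 4 group means over 12 libraries, robust quasi-likelihood tests and Benjamini-Hochberg adjustment at 0.05. Standard errors were derived from the F statistic, and log2 CPM used a prior count of 2. DESeq2 1.42.0 and the other alternatives are given at the end. The code was tested on simulated data. Gene positions are from GENCODE on GRCh38.

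The members and companion lists were chosen with earlier results of these data known. All 9 members are named. Of each list, up to 3 called genes per direction and comparison, by size of change and with a mean of at least 10 CPM in a group compared, were eligible, as was every gene of a list of under 5, and not all genes these rules select are reported here. NCL, JUN and MKI67, where outside that rule, and FBXW7 and PSMC3IP were chosen after their values were seen. No replicate libraries agreed within sampling noise.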

Additional observations from a re-analysis of the deposited data

Results flagged for a closer look

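Both flagged values are effects of abemaciclib that differed with and without fulvestrant by the interaction term of the edgeR fit. For MXD3 the effect was 1.68 higher with fulvestrant on the log2 scale (-2.69 without and -1.01 with it), and it passed in all 17 alternatives that could be fitted (1.36 to 1.93). The treated libraries held only 8 to 22 reads of MXD3, so its size is imprecise. For MXD4 the difference was -0.70 (0.86 without and 0.16 with fulvestrant), and it passed in all 18 alternatives (-0.76 to -0.65).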

How the results depend on the processing

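Each member's log2 fold change was refitted under up to 19 settings. Of the resulting log2 fold changes, 967 kept direction and side of the threshold, 18 lost and 5 gained a call, and 21 changed sign; no called value changed sign. With at least 10 counts required in every library, MXD3 was not tested and the interaction count was 1 in place of 2. The sign changes were of values near 0. MXI1 in combination against fulvestrant was 0.00 with upper-quartile factors and 0.00 without a filter. With 1 library left out at a time, values ranged as follows. Abemaciclib against DMSO gave MYC -0.16 to 0.59 and MAX -0.13 to 0.15. Combination against DMSO gave MAX -0.09 to 0.19 and MGA -0.25 to 0.02. Combination against abemaciclib gave MAX -0.06 to 0.10 and MXD1 -0.19 to 0.13. Combination against fulvestrant gave MAX -0.27 to 0.01, MNT -0.04 to 0.15, MXD1 -0.14 to 0.32 and MXI1 -0.06 to 0.06. The interaction gave MAX -0.29 to 0.02. The interaction of MGA passed without fulvestrant replicate 3 (0.71, adjusted p = 0.0275). Same-numbered libraries did not deviate together in every pair (r from -0.40 to 0.22, over 0.1 in 6 of 18 pairs), although all 6 pairs of replicate 2 libraries had r of 0.071 to 0.22. The best match in another group carried the same number in 17 of 36 cases, where arbitrary numbers give 12. With the number as a replicate block the members called were 4, 5, 5, 3, 0 and 2 in the 6 comparisons, the counts without the block. The companion lists were put through the same settings after the data were seen. Other scalings moved the median over all genes by at most 0.028 in the 6 comparisons. Treated libraries held as few as 8 reads of MXD3 and 12 of MYC, which limits both. The causes were not tested.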

Other observations

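Of 14 immediate early genes, which answer growth signals and cell handling within minutes, 9 were higher and 0 lower with abemaciclib (median log2 fold change 0.98), 9 higher and 0 lower with fulvestrant (1.09), and 6 higher and 0 lower with the combination (0.50). Among all genes tested, 20.5%, 25.3% and 27.7% were called higher and 20.7%, 25.7% and 27.5% lower, with medians of 0.00 to 0.01. JUN, a subunit of AP-1, changed by 0.94 ± 0.11, 1.21 ± 0.11 and 1.23 ± 0.11 with the 3 treatments (edgeR adjusted p = 5.7e-08, 2.6e-10 and 1.2e-10). JUNB changed by 1.31 ± 0.12 with fulvestrant and 1.35 ± 0.12 with the combination (3.5e-08 and 1.9e-08). The count with abemaciclib was 6 without DMSO replicate 1, a library in which MYC also lay lowest in its group.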
